A study of Saccharomyces cerevisiae with 6 samples.

Results

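The genes described here encode the enzymes that carry glyceraldehyde-3-phosphate to pyruvate in Saccharomyces cerevisiae. They were chosen by name, as every listed gene of these 5 steps, and all 10 were found among the 6442 genes of the deposited tables. TDH1, TDH2 and TDH3 encode glyceraldehyde-3-phosphate dehydrogenase (GAPDH), PGK1 phosphoglycerate kinase, GPM1 phosphoglycerate mutase and GPM2 a relative of it. ENO1 and ENO2 encode enolase, and CDC19 and PYK2 pyruvate kinase. RNA-seq libraries were made from 3 cultures labelled S3 and 3 labelled H0, grown for 12 h in flasks at 30 °C per the labels, in YPD and to exponential phase per the methods. Both groups carry synV, the synthetic chromosome V, and the labels name a genome rearrangement for both. The methods describe transcriptomes of yJBH012, a single haploid clone obtained by SCRaMbLE, the Cre-induced rearrangement of synthetic chromosomes, and of its parent yJBH000, which holds a carotenoid pathway at the CAN1 locus. Accordingly, S3 was taken as yJBH012 and H0 as yJBH000. VAC8, which lies on the segment deleted in yJBH012, had 0, 0 and 0.0639 CPM (counts scaled to a common library size after TMM adjustment) in the S3 libraries and 93.1, 87.3 and 85.3 CPM in the H0 libraries.

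In this part of glycolysis, each triose is oxidised, ATP is made at the kinase steps, and pyruvate is left for fermentation or respiration. Several steps are served by paralogous isozymes with different regulation. TDH3 and TDH2 are the forms known from growing cells, while TDH1 is known for slow growth and stress. ENO2 is the enolase gene induced by glucose, and ENO1 is not known for such induction. CDC19 is the main pyruvate kinase, and PYK2 is a glucose-repressed form that is not activated by fructose bisphosphate. In yeast the transcription factors Rap1 and Gcr1 drive many glycolytic promoters.

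The libraries held 17675299 to 21568860 counts in S3 and 23340054 to 25333938 in H0. The 10 genes were all covered by at least 1921 counts in every library, a depth reached by GPM2 in replicate 3 of H0. Replicate 1 of H0 stood apart from its group. Chi-square over its degrees of freedom was taken across genes with at least 10 counts summed over a pair of libraries. It was 83.2 and 85.4 for the H0 pairs that include replicate 1, 7.13 for the other H0 pair and 11.8 to 14.5 within S3. In both groups the a-specific genes were far above the alpha-specific ones, with summed CPM of 1893 to 2119 in S3 and 1662 to 1733 in H0 over 6 a-specific genes, against 61.9 to 71.1 in S3 and 74.0 to 75.0 in H0 over 4 alpha-specific genes. Of the 6 a-specific genes, 2 rose in S3, 3 fell and 1 did not pass the test, against 34.2% higher and 36.2% lower among all tested genes.

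None of the members lies on chromosome V in the R64 assembly, and 0 annotated genes overlap any of them. Whether reads of the opposite strand were counted on them was not tested. TDH1 (YJL052W) and TDH2 (YJR009C) lie on chromosome X, TDH3 (YGR192C) and ENO1 (YGR254W) on VII, and ENO2 (YHR174W) on VIII. PGK1 (YCR012W) lies on III, GPM1 (YKL152C) on XI, GPM2 (YDL021W) on IV, CDC19 (YAL038W) on I and PYK2 (YOR347C) on XV. The sources used here do not name the genome build. The gene lengths behind the deposited FPKM values (counts scaled by gene length and library total) equal the R64 exon lengths for 99.9% of 6237 genes, and R64 positions are used below. For the members they are coding lengths without flanking regions. The carotenoid cassette contains flanking parts of TDH3 and TDH2, and whether any read of it was counted on these genes was not tested.

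Isozyme counts depend on how well reads can be told apart. The coding sequences of TDH2 and TDH3 were 95.8% identical over 999 bases, with 42 differences and a longest shared run of 173 bases. TDH1 was 90.2% identical to TDH2 and 88.9% to TDH3. ENO1 and ENO2 were 94.8% identical over 1314 bases, with 68 differences and a longest shared run of 112 bases. GPM1 and GPM2 were 61.8% identical and CDC19 and PYK2 67.8%, with no shared run above 14 bases. The bases by which reads of the enolase genes are separated are shown for coding bases 155 to 244, the 90-base stretch with the most differences, with the 13 differing bases in capitals (R64; ENO1 at chrVII:1001081-1001170 and ENO2 at chrVIII:451481-451570, both on the plus strand).
ENO1: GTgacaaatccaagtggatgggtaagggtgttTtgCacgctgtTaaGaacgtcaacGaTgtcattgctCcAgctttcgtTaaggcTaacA
ENO2: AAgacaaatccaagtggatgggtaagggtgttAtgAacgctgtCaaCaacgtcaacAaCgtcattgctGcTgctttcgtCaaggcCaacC

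For the GAPDH genes the most different stretch was coding bases 44 to 133, which holds 26 bases that differ among the 3 genes, again in capitals (R64; TDH1 at chrX:338314-338403 on the plus strand, TDH2 at chrX:454549-454638 and TDH3 at chrVII:883678-883767 on the minus strand).
TDH1: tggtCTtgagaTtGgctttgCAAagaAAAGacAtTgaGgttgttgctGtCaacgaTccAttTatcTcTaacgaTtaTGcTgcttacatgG
TDH2: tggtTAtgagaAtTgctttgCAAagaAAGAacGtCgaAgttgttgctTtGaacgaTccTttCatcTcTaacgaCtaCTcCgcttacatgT
TDH3: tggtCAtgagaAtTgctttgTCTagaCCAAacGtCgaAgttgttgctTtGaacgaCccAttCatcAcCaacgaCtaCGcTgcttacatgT

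Of all 100-base windows of the coding sequence, the share that occurs once in the genome was 97.3% for ENO1 and for ENO2, 95.4% for TDH1, 87.2% for TDH2 and 91.8% for TDH3, and 100% for the other 5 genes. At 50 bases it was 76.4% for both enolase genes and 84.3%, 68.7% and 75.6% for TDH1, TDH2 and TDH3. Read length and the treatment of reads with several matches are not given in the sources used here, and their effect on the levels of the GAPDH and enolase genes was not tested. Within the enolase pair the unique share was equal for both genes.

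All 10 genes were higher in S3 (quasi-likelihood test of edgeR, Benjamini-Hochberg adjusted p under 0.05), against 34.2% of the 5904 genes tested. For all 10, every S3 library lay above every H0 library in CPM with TMM factors, which 36.9% of the tested genes did. In FPKM, on a scale set by total counts, GPM1 and PYK2 overlapped between the groups. GPM1 had 10617 FPKM in replicate 1 of S3 and 11164 in replicate 3 of H0. PYK2 had 79.9 FPKM in replicate 2 of S3 and 85.3 in replicate 1 of H0. With a log2 fold change above 1 as well, 6 of the 10 were called, against 10.7% of the tested genes. That count was 3, namely TDH1, PGK1 and ENO1, with total-count scaling, and 5 without replicate 1 of H0 or without replicate 3 of S3. Of all tested genes 70.5% passed in either direction, 36.2% were lower in S3 and 4.98% were lower by more than 2-fold, and 75.5% had libraries that did not overlap between the groups. The median log2 fold change of the members was 1.12 and that of all tested genes -0.01. Together the members took 6.84%, 7.07% and 7.55% of all counts in S3 and 3.55%, 3.996% and 4.06% in H0. The mean shares were 7.15% ± 0.36 (SD, n = 3) in S3 and 3.87% ± 0.28 in H0, and the groups did not overlap (exact permutation test, two-sided p = 0.1, the smallest p that 3 against 3 libraries can give).

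**Figure D1:**
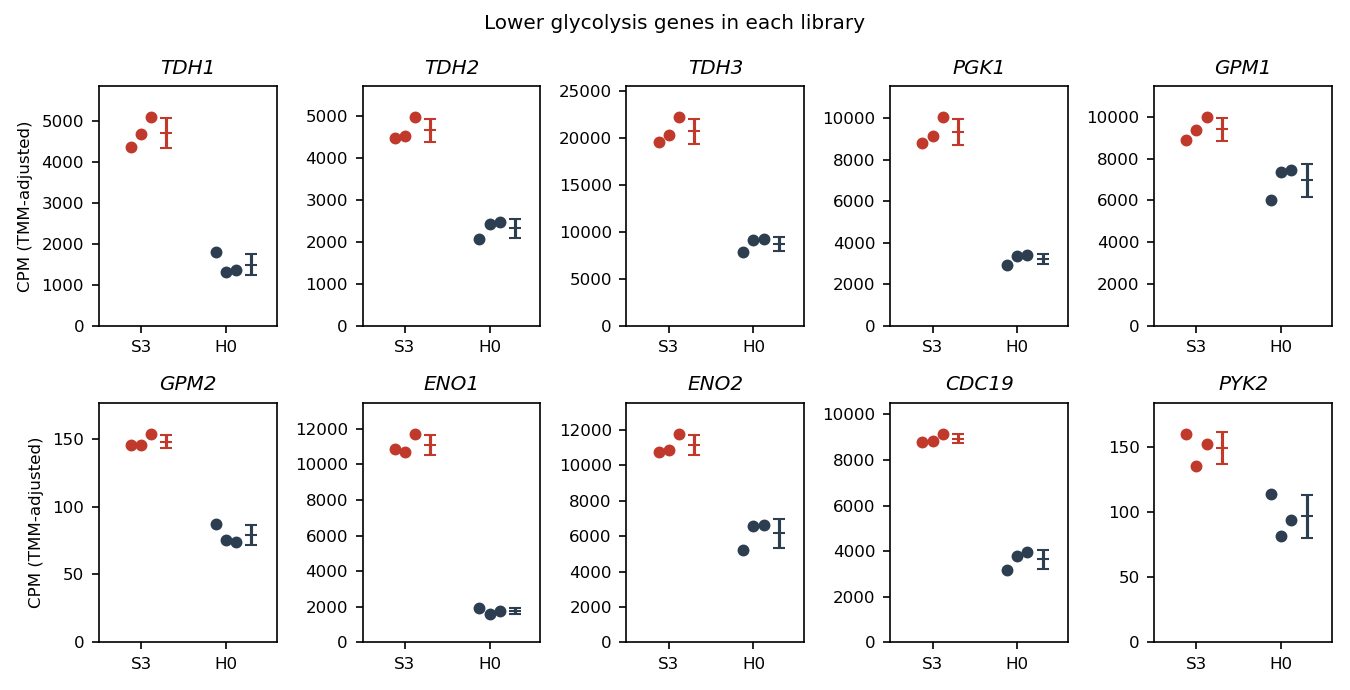
CPM adjusted by TMM factors (vertical axis, from 0) of the 10 lower glycolysis genes in the 3 S3 libraries (red) and the 3 H0 libraries (dark), with mean and SD beside the points. In every panel the S3 libraries lie above the H0 libraries. ENO1 has the largest fold change, at a mean of 11103 CPM in S3 and 1759 CPM in H0. The widest gap in CPM is that of TDH3, at a mean of 20745 CPM in S3 and 8750 CPM in H0.

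At the GAPDH step TDH1, TDH2 and TDH3 all rose in S3, with the largest estimate for TDH1. TDH1 had 4366, 4681 and 5092 CPM in S3, against 1801, 1321 and 1369 CPM in H0. Its log2 fold change was 1.65 (standard error 0.14, adjusted p = 3.97e-05), and in H0 the highest value was that of replicate 1. TDH2 had 4481, 4527 and 4976 CPM in S3 and 2065, 2427 and 2485 CPM in H0, a log2 difference between the groups of 1.003 (standard error 0.10, adjusted p = 9.85e-05). Here replicate 1 was the lowest H0 library, and without it the log2 fold change was 0.92. TDH3, the most abundant of the 10 transcripts in S3, had 19603, 20387 and 22246 CPM in S3 and 7848, 9152 and 9249 CPM in H0. Its log2 fold change was 1.25 (standard error 0.12, adjusted p = 6.29e-05).

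PGK1, the single gene of the first ATP-producing step, had 8830, 9140 and 10056 CPM in S3 and 2923, 3352 and 3401 CPM in H0. The log2 fold change was 1.53 (standard error 0.11, adjusted p = 1.69e-05). It thereby rose more than TDH2, TDH3 or any member of the later steps other than ENO1, by the estimates alone, and the libraries of each group lay close together.

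The phosphoglycerate mutase gene GPM1 changed least. It had 8881, 9340 and 9969 CPM in S3 and 6035, 7358 and 7465 CPM in H0, a log2 difference between the groups of 0.43 (standard error 0.12, adjusted p = 0.0117). This call was lost when libraries were scaled by their total counts alone (log2 fold change 0.10, adjusted p = 0.401), a scaling under which the median of all genes was -0.35. GPM2, a paralog whose product is not known to replace that of GPM1, was counted at a low level. It had 145, 145 and 154 CPM in S3 and 87.3, 75.7 and 74.0 CPM in H0, and its log2 fold change was 0.90 (standard error 0.07, adjusted p = 3.42e-05). GPM3, a further relative and not a member, fell by 0.54 on the log2 scale (standard error 0.05, adjusted p = 6.16e-05), with 775, 947 and 755 counts in S3 and 1878, 2036 and 1763 in H0.

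The enolase genes had the widest gap in fold change between isozymes. ENO1 had 10893, 10692 and 11723 CPM in S3, against 1917, 1616 and 1744 CPM in H0. Its log2 fold change, at 2.66 the largest of the 10, had a standard error of 0.11 and an adjusted p = 2.58e-06. ENO2 had 10739, 10890 and 11780 CPM in S3 and 5225, 6580 and 6647 CPM in H0, a log2 difference between the groups of 0.86 (standard error 0.12, adjusted p = 5.52e-04). In S3 the enolase genes stood at the same level, whereas in H0 every library had more ENO2 than ENO1. With total-count scaling the log2 fold change of ENO2 was 0.52 and that of ENO1 2.32, and both still passed the test.

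At the last step, CDC19 had 8808, 8836 and 9152 CPM in S3 and 3187, 3790 and 3979 CPM in H0. Its log2 fold change was 1.29 (standard error 0.11, adjusted p = 4.04e-05). PYK2 had 160, 135 and 152 CPM in S3 and 114, 81.8 and 93.6 CPM in H0, a log2 difference between the groups of 0.63 (standard error 0.12, adjusted p = 0.00278). The call for PYK2 was lost with total-count scaling (log2 fold change 0.29, adjusted p = 0.0708). The minor pyruvate kinase gene thus rose less than the main one by the estimates, while of the GPM pair the minor gene rose more.

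**Figure D2:**
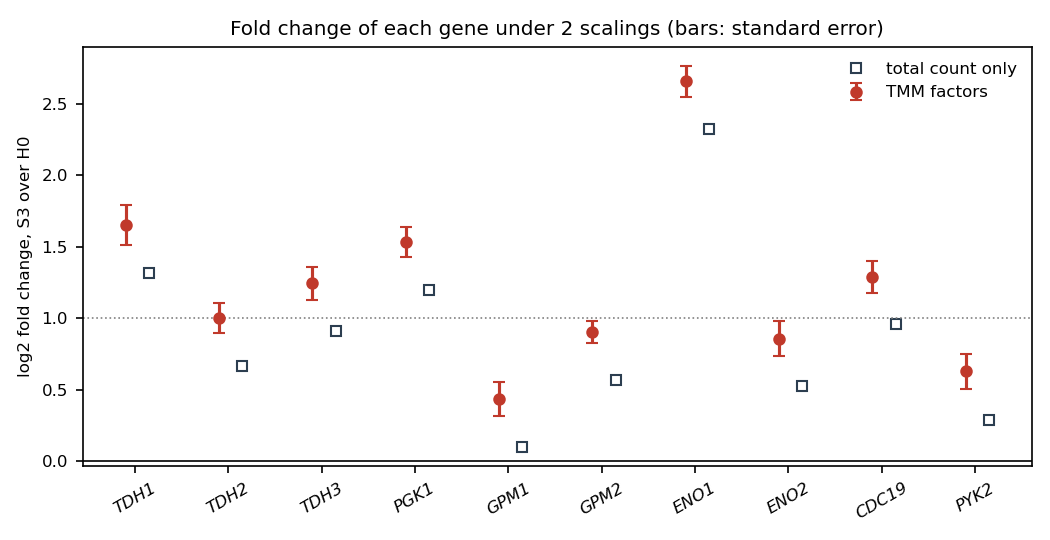
Log2 fold change of S3 over H0 (vertical axis) for the 10 genes (horizontal axis), with TMM factors and standard errors (red circles) and with total counts alone (open squares). ENO1 is highest at 2.66 and GPM1 lowest at 0.43 with TMM factors, and total-count scaling lowers every gene, GPM1 to 0.10.

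Isozyme shares do not depend on the scaling between libraries, since both genes of a pair are read from the same library. Shares are given as percent of the summed FPKM of a family. ENO1 made up 50.4%, 49.5% and 49.9% of enolase in S3, against 26.8%, 19.7% and 20.8% in H0. The means were 49.9% ± 0.41 (SD, n = 3) in S3 and 22.4% ± 3.84 in H0, a difference of 27.5 percentage points (exact permutation test, two-sided p = 0.1, the smallest possible). The ratio of ENO1 to ENO2 was 0.997 in S3 and 0.287 in H0, so that it was 3.47-fold higher in S3. The spread within H0 came from replicate 1, and without that library the difference was 29.7 percentage points.

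**Figure D3:**
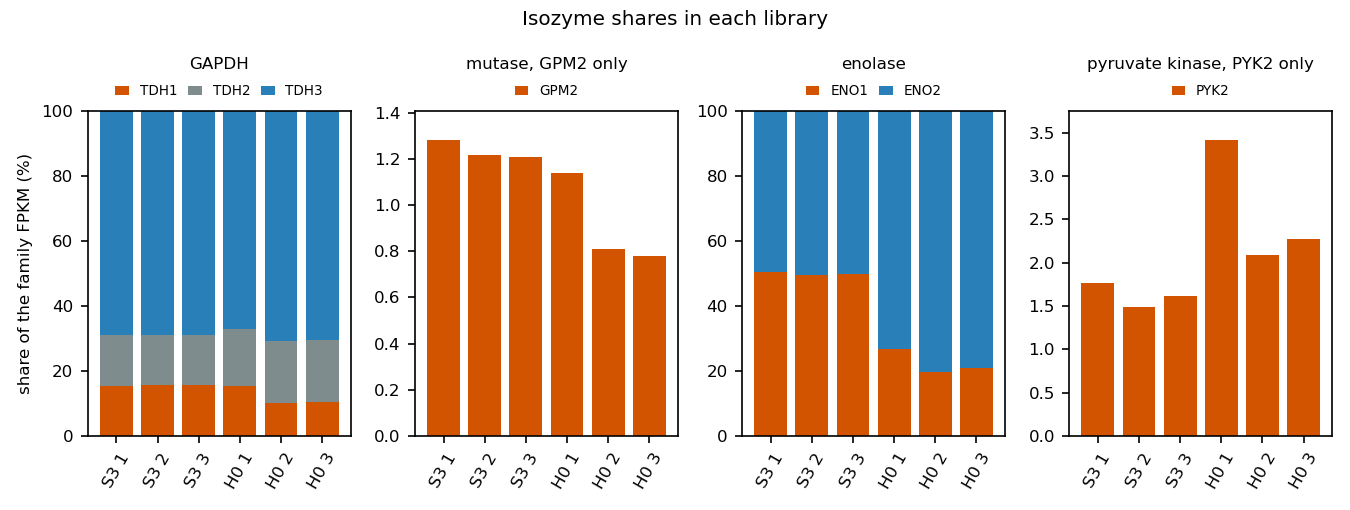
Share of the summed family FPKM in percent (vertical axis) in the S3 libraries and the H0 libraries. GAPDH and enolase are drawn as stacked bars of all isozymes, and the mutase and pyruvate kinase panels show only the minor gene on axes of their own. ENO1 takes 49.5% to 50.4% in S3 and 19.7% to 26.8% in H0, and PYK2 takes at most 3.41%.

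Among the GAPDH genes TDH3 remained the main form in both groups, with 68.9% ± 0.03 (SD, n = 3) of the sum in S3 and 69.5% ± 2.18 in H0. The difference was within the spread of H0 (exact permutation test, two-sided p = 0.7). The TDH2 share was 15.8%, 15.3% and 15.4% in S3 and 17.6%, 18.8% and 19.0% in H0, without overlap (exact permutation p = 0.1). The TDH1 share was 15.3%, 15.8% and 15.8% in S3 and 15.4%, 10.2% and 10.4% in H0. Replicate 1 of H0 thus lay at the S3 level for TDH1, and the groups overlapped (exact permutation p = 0.2), while without that library TDH1 was 5.29 percentage points higher in S3. The log2 ratio of TDH2 to TDH3 was the most even of all, at -2.15 ± 0.02 (SD, n = 3) in S3 and -1.91 ± 0.02 in H0. The small difference of -0.24 was therefore larger than the spread in both groups.

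GPM1 and CDC19 supplied nearly the whole of their families in both groups. The GPM2 share was 1.28%, 1.22% and 1.21% in S3 and 1.14%, 0.811% and 0.781% in H0, without overlap (exact permutation p = 0.1). The PYK2 share was 1.76%, 1.49% and 1.61% in S3 and 3.41%, 2.09% and 2.27% in H0, also without overlap (exact permutation p = 0.1). The gap for PYK2 was -0.97 percentage points with all libraries and -0.56 without replicate 1 of H0. The 6 log2 ratios between isozymes are one family of comparisons, in which no exact test of 3 against 3 libraries can pass a threshold of 0.05 with or without adjustment.

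In replicate 1 of H0 the members split by isozyme. TDH1, GPM2, ENO1 and PYK2, the least abundant form of each family in H0 per length, were above both other H0 libraries. The other 6 members, TDH2, TDH3, PGK1, GPM1, ENO2 and CDC19, were below both. The log2 ratio of replicate 1 to the mean of replicates 2 and 3 was 0.42 for TDH1, 0.38 for PYK2, 0.22 for GPM2 and 0.19 for ENO1. It was -0.34 for ENO2, -0.30 for GPM1, -0.29 for CDC19, -0.25 for TDH2, -0.23 for TDH3 and -0.21 for PGK1, while the median of all tested genes was -0.01. Lists of stress, nonfermentative growth and ribosomal protein genes moved with this library. The summed level of 15 stress genes was 14510, 16195 and 16820 CPM in S3 and 9246, 4909 and 4916 CPM in H0, so that replicate 1 of H0 held the highest H0 value. The summed level of 10 genes of nonfermentative growth was 1084, 933 and 1054 CPM in S3 and 1089, 690 and 694 CPM in H0, again highest in replicate 1 within H0. Most of this sum came from ALD4, at 674, 539 and 664 CPM in S3 and 755, 418 and 400 CPM in H0. ALD4 did not pass the test between the groups (adjusted p = 0.378), and of the 10 genes 1 rose and 4 fell. The summed level of 137 cytosolic ribosomal protein genes was 158254, 154550 and 154113 CPM in S3 and 57222, 69769 and 71148 CPM in H0, lowest in replicate 1. Between the groups, 10 of the 15 stress genes rose in S3, 0 fell and 5 did not pass the test (median log2 fold change 0.91). Among all tested genes 34.2% were higher and 36.2% lower in S3. The part of these lists in the isozyme levels was not tested.

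**Figure D4:**
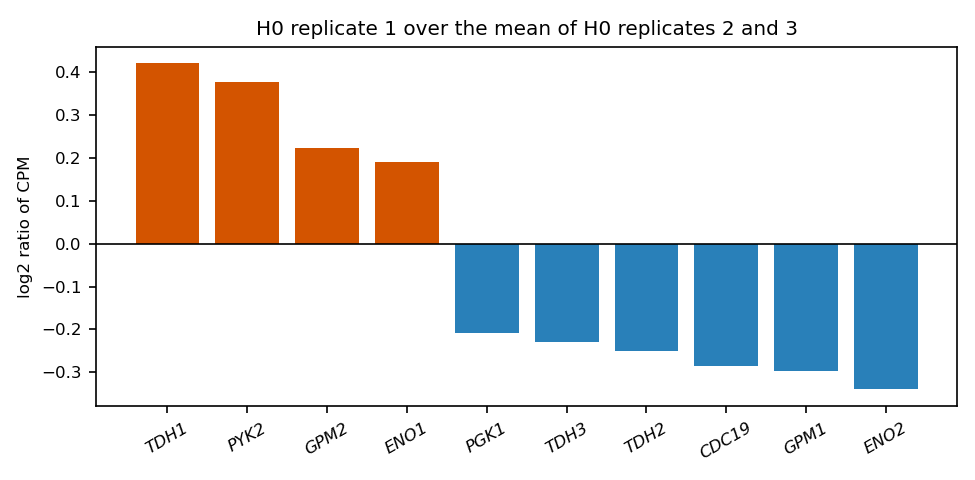
Log2 ratio of CPM in H0 replicate 1 over the mean of H0 replicates 2 and 3 (vertical axis) for the 10 genes, ordered by the ratio. TDH1, PYK2, GPM2 and ENO1 lie above 0 (orange, 0.19 to 0.42) and the other 6 genes lie below it (blue, -0.34 to -0.21).

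Compared per length, the order of the transcripts differed between the groups. In S3, TDH3 led with 18487 ± 1136 FPKM (SD, n = 3), followed by GPM1 at 11245 ± 620, ENO2 at 7545 ± 345, ENO1 at 7522 ± 324, PGK1 at 6648 ± 425, CDC19 at 5291 ± 89.1, TDH1 at 4200 ± 311 and TDH2 at 4154 ± 223. GPM2 and PYK2 came last at 141 ± 3.98 and 87.2 ± 6.84 FPKM. Of these neighbours, ENO2 and ENO1 overlapped, as did TDH1 and TDH2, and the others were apart in all libraries. In H0, GPM1 led with 10484.5 ± 1082 FPKM, then TDH3 at 9829 ± 765, ENO2 at 5251 ± 626, PGK1 at 2893 ± 202, CDC19 at 2726 ± 277, TDH2 at 2612 ± 225, TDH1 at 1685.5 ± 319 and ENO1 at 1504 ± 145. GPM2 at 94.9 ± 9.95 and PYK2 at 71.3 ± 12.9 FPKM were again last. The ranges of GPM1 and TDH3, PGK1 and CDC19, CDC19 and TDH2, and TDH1 and ENO1 overlapped in H0, although within each library the order was the same. Among all 6442 genes, ENO1 ranked between 12 and 13 in S3 and between 89 and 125 in H0, and TDH3 ranked 3 in every S3 library and 6 to 7 in H0.

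The steps were next compared with PGK1, which has no isozyme. The enolase sum overlapped between the groups as a multiple of PGK1, although the isozyme shares did not. It was 2.33, 2.25 and 2.23 times the PGK1 FPKM in S3 and 2.33, 2.33 and 2.35 times in H0 (exact permutation test, two-sided p = 0.3), with a mean difference of -0.07. The mutase sum fell behind, at 1.71 ± 0.03 (SD, n = 3) in S3 and 3.65 ± 0.12 in H0. The GAPDH sum was 4.04 ± 0.02 times PGK1 in S3 and 4.89 ± 0.11 in H0, and the pyruvate kinase sum was 0.811 ± 0.04 in S3 and 0.966 ± 0.03 in H0. For these last 3 steps the groups did not overlap (exact permutation p = 0.1 each). As a share of the FPKM of all 10 members, the mutase step took 17.4% ± 0.20 (SD, n = 3) in S3 and 28.4% ± 0.86 in H0, and the enolase step 23.1% ± 0.37 in S3 and 18.2% ± 0.04 in H0. The GAPDH step took 41.1% ± 0.41 in S3 and 38.1% ± 0.997 in H0, and the pyruvate kinase step 8.24% ± 0.29 in S3 and 7.52% ± 0.20 in H0. By this measure both were higher in S3, whereas both were lower relative to PGK1, which itself rose. The summed mutase FPKM itself was 11386 ± 623 in S3 and 10579 ± 1072 in H0, with overlapping libraries, on a scale set by total counts.

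**Figure D5:**
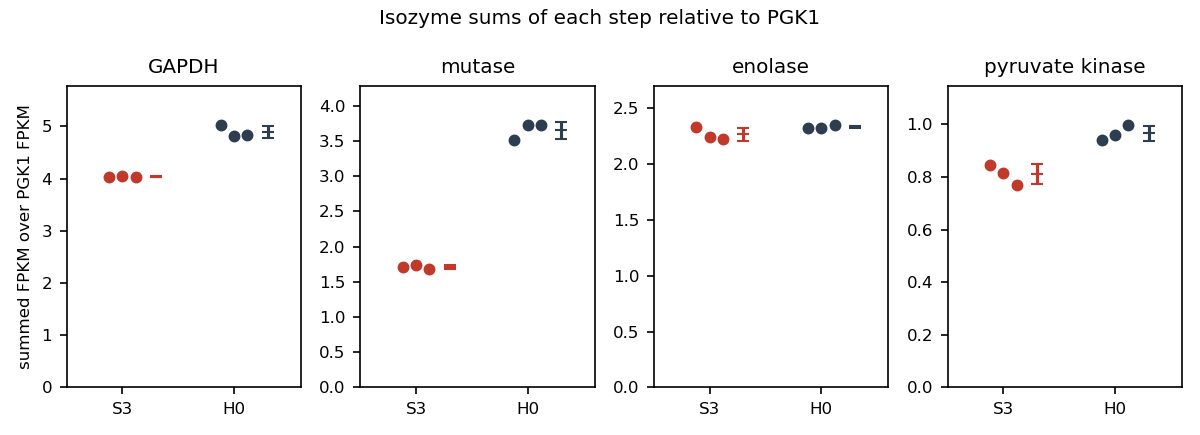
Summed FPKM of the isozymes of a step over the FPKM of PGK1 (vertical axis, from 0) in the 3 S3 libraries (red) and the 3 H0 libraries (dark), with mean and SD. The enolase ratio is 2.23 to 2.33 in S3 and 2.33 to 2.35 in H0, while the mutase ratio is near 1.71 in S3 and 3.65 in H0.

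The neighbouring parts of the pathway moved in the same direction, with some exceptions. For comparison, 34.2% of all tested genes were higher in S3 and 36.2% lower. These calls rest on TMM factors. The lists were not refitted with total-count scaling, which lowered the estimate of every member. Of 8 upper glycolysis genes, all 8 rose in S3 (median log2 fold change 0.69), 3 of them by more than 2-fold. These were HXK1, a glucose-repressed hexokinase gene, at 2.32, GLK1, encoding glucokinase, at 1.49, and FBA1, encoding aldolase, at 1.41. The smallest estimates were those of TPI1 at 0.27 and HXK2 at 0.36. Both were below the 0.43 of GPM1, whose call was lost with total-count scaling. Of 4 genes from pyruvate to ethanol, 3 rose and 1 fell, with ADH1 (alcohol dehydrogenase) at 1.78 and PDC1 (pyruvate decarboxylase) at 1.54. Of 4 genes that act in the opposite direction, 1 rose, 2 fell and 1 did not pass, and PYC1, a pyruvate carboxylase gene, had the only change beyond 2-fold, at -2.51. Of 4 regulator genes, TYE7 rose by a log2 fold change of 0.64, RAP1 by 0.41 and GCR1 by 0.41, and GCR2 stood at -0.07 (adjusted p = 0.317). The estimates of RAP1 and GCR1 were also below that of GPM1. Whether their calls hold with total-count scaling was not tested.

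Lists of growth state were read in the same fit. Of the 137 ribosomal protein genes, 135 rose in S3 and 0 fell (median log2 fold change 1.21). Of the 10 genes of nonfermentative growth, 1 rose, 4 fell and 5 did not pass, against 34.2% higher and 36.2% lower among all tested genes, and HXT5, a hexose transporter gene of slow growth, was the one that rose, at a log2 fold change of 2.42. More than 2-fold lower were ADH2, the ethanol-oxidising alcohol dehydrogenase gene, at -1.35 and SFC1, a mitochondrial succinate-fumarate carrier gene, at -1.46. The part of growth stage in the levels of the members was not tested.

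Upstream sequences were searched over the 800 bases before each start codon, on both strands, for letters of the Rap1 site (ACCCANNCA), the Gcr1 site (CTTCC) and the stress element bound by Msn2 and Msn4 (AGGGG). The Rap1 letters were found before 6 of the 10 members and before 9.09% of 5994 protein-coding genes. The Gcr1 letters were found before 9 members and 81.8% of genes, and the stress element before 7 members and 48.1% of genes. Rap1 letters within 50 bases of Gcr1 letters were found for PGK1, GPM1, ENO1 and CDC19, and for 1.90% of all genes. These 4 stretches are shown, as those of all members with this pattern. Of the 4 genes, 3 rose by more than 2-fold and GPM1 changed least of all members. Any relation of the letters to the fold changes was not tested. Capitals mark the searched letters in either direction (R64; ENO1 at chrVII:1000437-1000531, PGK1 at chrIII:137256-137326 and CDC19 at chrI:71116-71166 on the plus strand, GPM1 at chrXI:164730-164790 on the minus strand).
ENO1: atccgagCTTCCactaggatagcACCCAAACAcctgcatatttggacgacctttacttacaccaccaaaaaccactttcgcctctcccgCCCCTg
PGK1: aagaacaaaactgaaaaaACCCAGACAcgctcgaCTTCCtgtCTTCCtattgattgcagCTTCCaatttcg
CDC19: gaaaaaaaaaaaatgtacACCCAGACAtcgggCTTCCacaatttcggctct
GPM1: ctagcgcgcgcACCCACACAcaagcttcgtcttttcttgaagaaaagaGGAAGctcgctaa

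Of the isozyme pairs, ENO1 held a Rap1 match at position -467 and a stress element at -401, counted from the start codon, and ENO2 held neither in this window. GPM1 held a Rap1 match at -394 and no stress element, and GPM2 a Rap1 match at -622 and a stress element at -419. CDC19 held a Rap1 match at -652 and a stress element at -137, and PYK2 a stress element at -178 and no Rap1 match. Among the GAPDH genes TDH1 held stress element letters at -447 and -229, TDH3 held them at -547, -352 and -160, and TDH2 held none. TDH3 was the only one of these 3 with Rap1 matches, at -511 and -268. A match is a description of the letters only, and the upstream regions were read from the reference genome, not from the strains.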

How the data were processed

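Total RNA of 6 cultures was sequenced after preparation with a NEBNext Ultra kit. The authors deposited raw counts per gene, without normalization, and FPKM values, computed from the same counts with one length per gene. The submitters' processing notes name HTSeq 0.6.1 and DESeq 1.18.0. The aligner and the genome build are not given in the sources used here. Of 6442 identifiers, 6436 matched the R64 gene table.

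The members and lists were chosen with earlier results of these data known. The counts were fitted in R 4.3.3 by the quasi-likelihood method of edgeR 4.0.16, after filterByExpr and with TMM factors as offsets. The test was two-sided, p-values were Benjamini-Hochberg adjusted over 5904 genes, and calls required a value under 0.05. Standard errors were derived from the same model. Nothing in the labels says more of the replicates than their numbers, so p-values measure the spread between these libraries. Shares and step ratios were computed from FPKM per library and compared by exact permutation tests (scipy 1.17.1). The named genes are the 10 members, their relatives and regulators, VAC8, and genes beyond 2-fold in the pathway and nonfermentative growth lists. ALD4 and the genes nearest in profile were named as well. Stress, ribosomal protein and mating-type genes were given only as counts or sums. Of these, 6 of 15 stress genes, 102 of 137 ribosomal protein genes and 1 of 6 a-specific genes were called more than 2-fold higher in S3. Among all tested genes this share was 10.7%.

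Alternatives were other scaling factors, the Wald test of DESeq2 1.42.0, limma 3.58.1 on log2(FPKM + 1) and log2(FPKM + 0.1), other filters, a replicate block, an adjusted p under 0.01, raw-count shares, and each library left out. TMM factors computed without the members were added after seeing the data. The fit was tested on simulated data. Sequences are from RefSeq R64.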

Additional observations from a re-analysis of the deposited data

How the results depend on the processing

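All 10 members were higher and 0 lower in S3 under 13 of 16 alternative fits, and 8 of the 10 were higher under total-count scaling and under limma on log2(FPKM + 1) or log2(FPKM + 0.1), where GPM1 and PYK2 did not pass. Each fit without 1 library gave 10. With an adjusted p under 0.01, 9 members were called. Computing TMM factors without the members, an alternative chosen after seeing the data, also gave 10. With the replicate number as a block, 10 members were higher. Whether the numbers pair the libraries is not given by the labels. Same-numbered deviations correlated at -0.01, 0.08 and 0.08. Replicate 1 of S3 correlated best with replicate 2 of H0 (0.04), while replicates 2 and 3 of S3 correlated best with the H0 library of their own number. Correlations this small cannot decide the question. A log2 fold change above 1 was reached by 6 members with TMM factors by 3 with total-count scaling and both limma fits, and by 5 with upper quartile factors, without replicate 3 of S3 or without replicate 1 of H0. The GPM1 share of its family differed by -0.33 percentage points, and by 0.0714 when GPM3 was added to the sum. The TDH3 share differed by -0.63, ranging over single left-out libraries between -1.89 and 0.0851, and was positive without replicate 2 of H0. The members' share of all counts was higher by 3.28 percentage points, by 2.08 as a share of summed FPKM and by 2.42 without TDH3. As shares of raw counts, the GAPDH step differed by 0.98 and the mutase step by -8.47 percentage points, against 3.01 and -11.0 as shares of FPKM. All other shares kept their direction under every alternative run. Depth was not varied, and the lowest count of a member in any library was 1921.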

Other observations

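Of 3 relatives of the enolase genes, ERR3 passed the test. It had 3, 8 and 4 counts in S3 and 48, 33 and 27 in H0, a log2 difference between the groups of -2.18 (standard error 0.39, adjusted p = 0.00158). ERR1 had 23, 15 and 15 counts in S3 and 323, 55 and 17 in H0, with the highest count in replicate 1 of H0, and its estimate of -2.22 did not pass the test (adjusted p = 0.0871). ERR2 had at most 8 counts in any library and was left out by the filter on low counts. Reads shared among these subtelomeric copies cannot be assigned with certainty.

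The genes whose profile lay nearest to that of ENO1 over the 6 libraries, by the root mean square distance of centred log2 CPM, were SPO75 at 0.12, AQY1 at 0.13 and ASC1 at 0.15. Nearest to the summed members were YGK1 at 0.01, PPH22 at 0.04 and RPS23B at 0.05. With 6 libraries in 2 groups, such a distance mainly reflects the size of the difference between the groups.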
